A study of Mus musculus with 15 samples.

Results

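The Hox genes encode homeodomain transcription factors that give cells along the body axis their position. Members were taken as every entry of the deposited feature lists whose symbol is Hox, a cluster letter from a to d and a number, which gave 39 genes of 38295 features and left out the antisense and opposite-strand transcripts Hoxb3os and Hoxa11as. Of these, 11 belonged to the Hoxa cluster, 10 to Hoxb, 9 to Hoxc and 9 to Hoxd. They were followed in sequencing of RNA from single cells of 15 entire mouse embryos from E6.0, when gastrulation begins, to E7.75, when the cardiac crescent forms. The 12 control embryos carried at least 1 wild-type Mesp1 allele, and the 3 KO embryos were homozygous for a Mesp1 Cre knock-in that replaces the gene, a transcription factor of the first mesoderm. Embryos were C57/BL6, carried the Smarcd3-F6::eGFP enhancer reporter of cardiac precursors and, except for the early E7.5 control and late E7.5 control replicate 1, the Rosa26R-Ai14 reporter, which Cre switches on in the Mesp1 lineage. Controls were 3 embryos at E6.0, 1 at late E6.0 and 1 at E6.5 (early), 1 at early E7.5, 1 at E7.0 and 1 at late E6.5 (middle), and 2 each at late E7.5 and E7.75 (late). The KO embryos were 1 at E6.5, 1 at E7.0 and 1 at late E7.5, so that each stage had 1 KO embryo, and ages within a stage did not match exactly. The knock-in allele also carries a PGK-Neo cassette. Whole embryos were dissociated, with extra-embryonic cells among them, but the paper states that older embryos were de-yolked. It took tissue for genotyping from the yolk sac or from a nick of an extra-embryonic region.

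In mammals the Hox genes lie in 4 clusters on different chromosomes, and genes at matching places in the clusters carry the same paralog number. Low numbers, at the 3′ end of a cluster, are known to be switched on first and to reach furthest towards the head, while high numbers follow later and stay near the tail. The first Hox transcripts are known from the posterior epiblast and primitive streak, where retinoic acid, Wnt and Fgf signals and the caudal-related Cdx factors act on the clusters, and Hox proteins bind DNA together with the TALE homeodomain proteins Pbx and Meis.

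In the GENCODE M21 annotation of mm10, matched by gene identifier, the Hoxa members lie on the minus strand of chromosome 6. The Hoxb members span chr11:96194316-96368256, the Hoxc members chr15:102921103-103036852 and 8 Hoxd members chr2:74668310-74765142, these 3 on the plus strand. Hoxd4 had no entry under its identifier. Of paralog number 1, the genes described are Hoxb1 (ENSMUSG00000018973, chr11:96365752-96368256) and Hoxd1 (ENSMUSG00000042448, chr2:74762980-74765142). For 14 members another gene on the same strand overlapped the annotated span, for 10 of them another member. Hoxa3 covers Hoxa4, Hoxa5 and Hoxa6, and Hoxc5 covers Hoxc6, Hoxc8 and Hoxc9 and overlaps Hoxc10, and Hoxd3 overlaps an entry named Hoxd4, so the counting could have split or dropped reads of these genes and their levels are uncertain. For 13 members, some of them among the 14, a gene lay on the opposite strand.

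RefSeq promoters on GRCm38.p6, 250 bases before to 50 bases after the start, were found for 22 members (24 promoters). Those of 4 genes are shown because they stand for the order in which the genes reached a level of 1 CPM, defined with the libraries: Hoxb1 and Hoxd1 at E6.0, Hoxb4 at E6.5 and Hoxb8 at early E7.5. Capitals mark letters searched on both strands: the retinoid receptor core motif AGGTCA, the Pbx-Hox motif TGATNNAT and the Cdx motif TTTATG, which did not overlap in these 4. The sequences run 5′ to 3′ on the plus strand, from chr11:96365508-96365807 (Hoxb1), chr2:74762730-74763029 (Hoxd1), chr11:96318017-96318316 (Hoxb4) and chr11:96281655-96281954 (Hoxb8).
Hoxb1: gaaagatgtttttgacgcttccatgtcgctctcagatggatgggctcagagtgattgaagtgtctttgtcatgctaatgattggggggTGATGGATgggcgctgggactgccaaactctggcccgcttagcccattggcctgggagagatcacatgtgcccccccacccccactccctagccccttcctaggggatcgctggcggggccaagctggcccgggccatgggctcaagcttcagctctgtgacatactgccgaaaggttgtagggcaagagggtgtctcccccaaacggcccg
Hoxd1: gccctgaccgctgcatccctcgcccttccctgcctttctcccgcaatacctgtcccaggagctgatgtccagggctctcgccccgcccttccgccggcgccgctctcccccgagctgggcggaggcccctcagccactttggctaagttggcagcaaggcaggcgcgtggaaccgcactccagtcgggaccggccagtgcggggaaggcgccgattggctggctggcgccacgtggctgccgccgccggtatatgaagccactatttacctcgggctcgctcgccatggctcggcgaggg
Hoxb4: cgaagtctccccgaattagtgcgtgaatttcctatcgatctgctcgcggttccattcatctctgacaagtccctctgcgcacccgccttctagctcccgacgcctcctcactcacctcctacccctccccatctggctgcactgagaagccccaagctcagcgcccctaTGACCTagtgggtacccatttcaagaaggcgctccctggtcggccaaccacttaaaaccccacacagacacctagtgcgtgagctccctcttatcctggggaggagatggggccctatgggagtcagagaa
Hoxb8: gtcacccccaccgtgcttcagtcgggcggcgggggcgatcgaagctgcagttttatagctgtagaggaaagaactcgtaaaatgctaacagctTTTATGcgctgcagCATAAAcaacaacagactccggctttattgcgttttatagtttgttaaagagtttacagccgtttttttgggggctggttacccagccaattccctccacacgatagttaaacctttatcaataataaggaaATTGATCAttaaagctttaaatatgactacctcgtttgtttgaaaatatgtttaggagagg
The Hoxb1 promoter held 1 Pbx-Hox match, the Hoxb4 promoter 1 retinoid receptor motif on the minus strand, and the Hoxb8 promoter 2 Cdx matches, 1 on each strand, and 1 Pbx-Hox match. The Hoxd1 promoter held none of the 3. Over the 24 Hox promoters, the retinoid receptor motif was found in 29.2% (16.3% of 32851 promoters), the Pbx-Hox motif in 16.7% (8.85%) and the Cdx motif in 20.8% (11.9%). These are matches of letters and not binding sites.

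Cells with less than 10% mitochondrial UMIs, under 50000 UMIs and 200 to 7000 genes were kept, 93701 of 99474 barcodes. Libraries held 13058356 to 379177866 UMIs. Levels are CPM, UMIs of a gene per 1000000 UMIs summed over an embryo's cells, and since the kit counts 1 UMI per captured 5′ end, they are not divided by gene length. In such sums fewer cells of a type and less RNA per cell cannot be told apart. The labels do not say whether embryos of a group shared a litter, so p-values measure only the spread between these embryos. No more than 3.81% of a smaller library's barcodes were shared with another library. Mesp1 stood at 0.0 to 0.097 CPM in the 3 KO embryos and at 3.21 to 194 CPM in the 12 controls. The late KO and E7.75 control replicate 1, both of experiment 5 by their library names, were shallow, with a median of 3827 and 3925.5 UMIs per cell against 14063 to 34415 in the others. E6.5 control replicate 1 stood apart from the other early controls in Hox level, and late E7.5 control replicate 1 from the other late controls, and the main counts of members that rest on them are given without them too.

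The summed Hox level was higher in older controls, with 2 breaks in the order. In the 3 E6.0 embryos it was 8.84, 13.5 and 5.69 CPM, and in the late E6.0 embryo 15.2 CPM. It stood at 50.4 CPM at E6.5, 27.4 CPM at late E6.5, 103.9 CPM at E7.0 and 295.6 CPM at early E7.5. The late E7.5 embryos had 256 and 367 CPM and the E7.75 embryos 453 and 504 CPM. The order of labelled ages was broken by the E6.5 embryo, which lay above late E6.5, and by late E7.5 replicate 1, which lay below early E7.5. Within experiment 7, which holds 6 controls, the sum went from 50.4 CPM at E6.5 to 504 CPM at E7.75 with the same 2 breaks.

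Of the 3 groups, paralogs 1 to 3 had the highest sum in every control except E7.75 replicate 1, where paralogs 4 to 8 did. At E7.0 paralogs 1 to 3 summed to 87.4 CPM, paralogs 4 to 8 to 12.2 CPM and paralogs 9 to 13 to 4.36 CPM. At early E7.5 the 3 sums were 194, 70.2 and 31.5 CPM. Across the 4 late controls, paralogs 1 to 3 lay at 198, 176, 176 and 282 CPM, paralogs 4 to 8 at 43.3, 137, 221 and 165 CPM, and paralogs 9 to 13 at 14.9, 53.1, 56.0 and 57.2 CPM, in the order late E7.5 replicates 1 and 2, E7.75 replicates 1 and 2. Late E7.5 replicate 1 was the lowest in both groups of higher paralogs and not in paralogs 1 to 3.

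**Figure D1:**
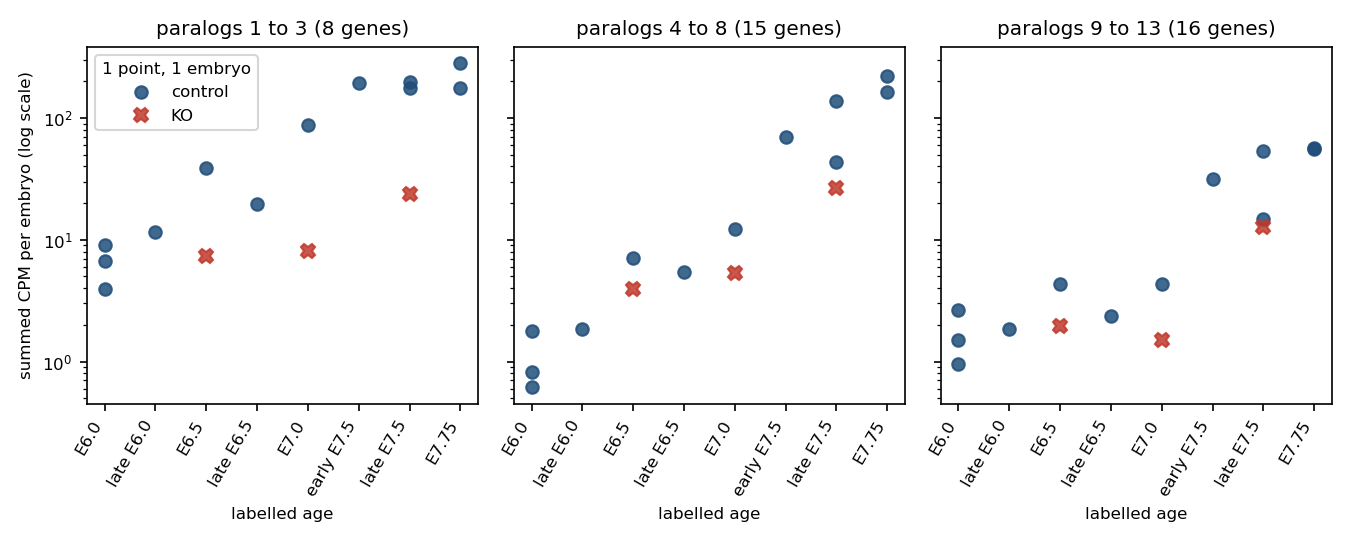
Summed CPM per embryo (log axis) against labelled age for paralogs 1 to 3, 4 to 8 and 9 to 13, 1 point per embryo, controls and KO embryos in different symbols. Paralogs 1 to 3 lie at 3.93 to 9.04 CPM at E6.0 and at 176 to 282 CPM in late controls, and the late KO lies at 23.7, 26.8 and 12.8 CPM in the 3 panels.

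Hoxb1 and Hoxd1 were detected from the youngest embryos. The 3 E6.0 embryos held 288, 106 and 42 Hox UMIs in all, so levels there rest on few molecules, and no background class was described at that age. Hoxb1, which specifies rhombomere 4 of the hindbrain and is an early retinoic acid target, was at 3.56, 3.56 and 1.63 CPM at E6.0, 3.83 at late E6.0 and 16.003 at E6.5. It stood at 7.74 CPM at late E6.5, 45.1 at E7.0 and 79.6 at early E7.5, and at 102, 42.1, 47.9 and 80.4 CPM in the 4 late controls. Early and late controls did not overlap, and the late level of Hoxb1 was not ordered by age. At E7.0 it was already at 66.3% of its late mean. Hoxd1, active in the early neural tube and in sensory neurons, was at 1.23, 2.42 and 0.948 CPM at E6.0, 2.16 at late E6.0, 5.12 at E6.5, 3.32 at late E6.5, 6.85 at E7.0, 10.8 at early E7.5, and 9.27, 10.9, 13.9 and 16.9 CPM late. Hoxd1 had a narrower range than Hoxb1, from 0.948 to 16.9 CPM. Hoxb2, a hindbrain gene next to Hoxb1 in the cluster, was at 0.583, 1.27 and 1.08 CPM at E6.0, 4.20 at late E6.0, 12.7 at E6.5, 5.23 at late E6.5, 24.6 at E7.0, 50.5 at early E7.5, and 45.3, 40.5, 32.9 and 65.1 CPM late. The early E7.5 embryo was within the late range for Hoxb1, Hoxd1 and Hoxb2.

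Onset was taken as the youngest age with a control embryo at 1 CPM or more, a description with no test. Among early controls 7 members reached it, among them Hoxb1, Hoxb2, Hoxb4, Hoxb6, Hoxd1 and Hoxd9, against 35.6% of all features, and without the E6.5 embryo 4, among them Hoxb1, Hoxb2 and Hoxd1. Among middle controls 25 reached it (34.8% of all features), and 9 without the early E7.5 embryo. Among late controls 30 did (35.2%). Counted by age, 4 members had reached 1 CPM at E6.0, 7 by E6.5, 8 by late E6.5, 9 by E7.0, 25 by early E7.5, 29 by late E7.5 and 30 by E7.75.

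Paralogs 1 to 3 had the largest share of members at 1 CPM at each age. Of the 8 members of paralogs 1 to 3, 4 had done so at E6.0, 5 by E7.0 and 8 by early E7.5. Of the 15 members of paralogs 4 to 8, none had at late E6.0, 2 by E6.5, 3 by E7.0, 10 by early E7.5 and 14 by E7.75. Of the 16 members of paralogs 9 to 13, 1 had by E6.5 (Hoxd9), 7 by early E7.5 and 8 by late E7.5. By cluster, Hoxb led: 5 of 10 Hoxb members had reached 1 CPM by E7.0, against 2 of 11 Hoxa, 2 of 9 Hoxd and 0 of 9 Hoxc members. The first Hoxc members, Hoxc4, Hoxc6, Hoxc8 and Hoxc9, came at early E7.5. The steps at E6.5 and early E7.5 each rest on 1 embryo. Without the E6.5 embryo, 0 of 15 members of paralogs 4 to 8 and 0 of 16 of paralogs 9 to 13 had reached 1 CPM by E6.5, 2 and 0 by late E6.5 and 3 and 1 by E7.0, against 4, 4 and 5 of 8 of paralogs 1 to 3. Without the early E7.5 embryo, 5, 3 and 1 members of the 3 groups had done so before late E7.5 and 8, 13 and 7 by late E7.5, and the first Hoxc members, 6 of 9, came at late E7.5. The counts by cluster at E7.0 were the same without either embryo. The Hoxc cluster has no gene of paralogs 1 to 3. Within paralogs 4 to 8, counted by cluster after the data were seen, 3 of 5 Hoxb, 0 of 4 Hoxa, 0 of 4 Hoxc and 0 of 2 Hoxd members had reached 1 CPM by E7.0.

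The 9 members that reached 1 CPM in no control were Hoxa6, Hoxa13, Hoxb13, Hoxc11, Hoxc12, Hoxc13, Hoxd11, Hoxd12 and Hoxd13, all but Hoxa6 of paralog numbers 11 to 13. The paralog 13 genes, known for the limb tips, genital tubercle and tail end, had late means of 0.208 ± 0.113 (Hoxa13), 0.0178 ± 0.0079 (Hoxb13), 0.0696 ± 0.0245 (Hoxc13) and 0.269 ± 0.143 CPM (Hoxd13; SD, n = 4). Hoxd13 was at 0.184, 0.255 and 0 CPM at E6.0, 0.462 at E6.5 and 0.181 to 0.406 CPM in 3 of the late controls and 0.113 in the other, so the early and late ranges overlapped.

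**Figure D2:**
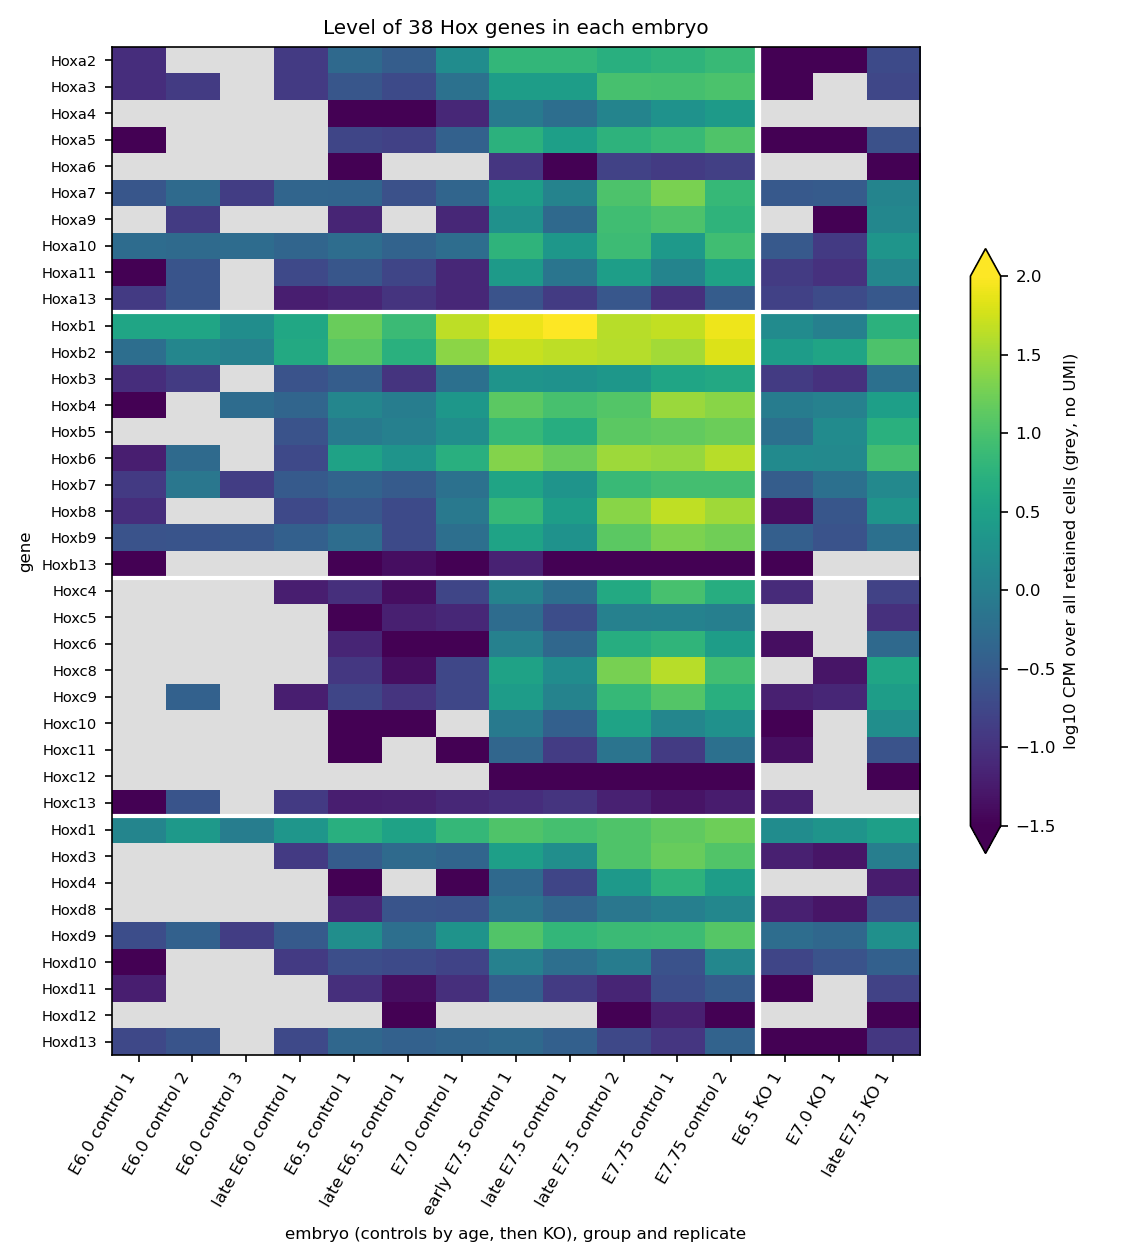
Level of 38 of the 39 Hox genes (vertical) in each of the 15 embryos (horizontal, controls by labelled age, then the KO embryos), as log10 CPM over all retained cells, grey where no UMI was found. Hoxb1, Hoxd1 and Hoxb2 are the brightest genes drawn in the youngest embryos, 25 of the 39 members had reached 1 CPM by early E7.5, and the paralog 13 genes stay under 1 CPM throughout.

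Relative to their late level, paralogs 1 to 3 were also further along at E7.0 by their median, though single genes of the groups overlapped. Over the 27 members with a late mean of at least 1 CPM, the E7.0 embryo was at a median of 23.4% of the late mean for paralogs 1 to 3 (8 members), 4.74% for paralogs 4 to 8 (12 members) and 3.78% for paralogs 9 to 13 (7 members). In the early E7.5 embryo the medians were 77.8%, 40.8% and 50.1%, and in late E7.5 replicate 1, itself part of the late mean, 68.7%, 21.6% and 21.6%. At E7.0 single genes ran from 4.45% to 66.3% (Hoxb1, the highest), from 0.655% to 17.6% and from 0% to 23.5% in the 3 groups. Spearman's rho between paralog number and this percentage was −0.165, 0.13 and −0.137 in the 3 E6.0 embryos, −0.186 at late E6.0, −0.31 at E6.5, −0.314 at late E6.5, −0.572 at E7.0, −0.156 at early E7.5 and −0.484 in late E7.5 replicate 1, over 27 genes that share 1 library each time, and is given as a description.

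**Figure D3:**
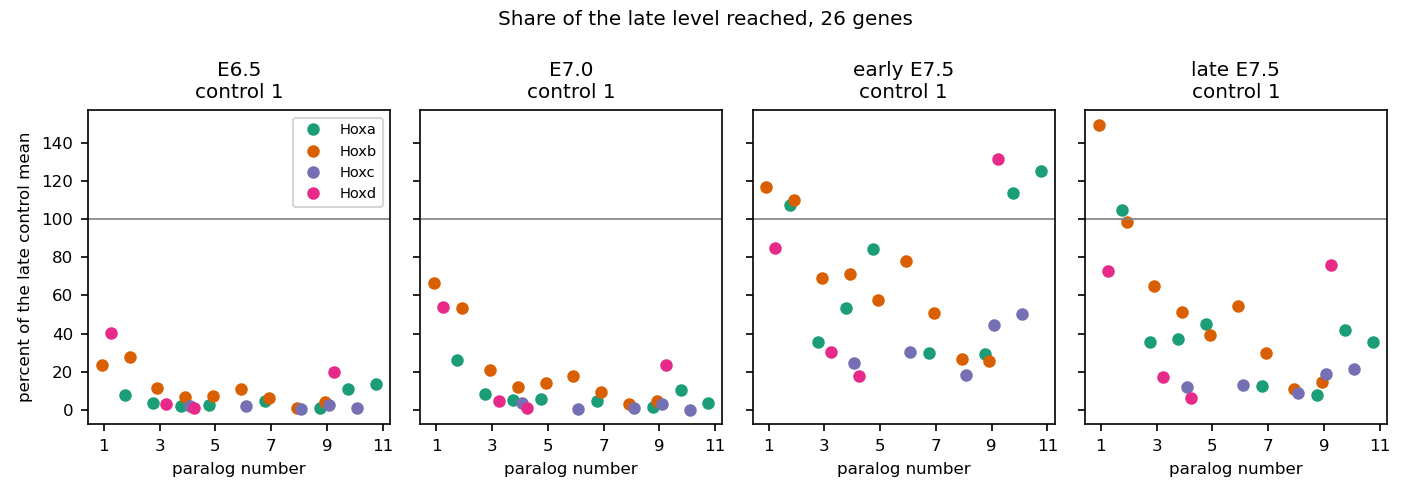
Each gene's level as a percentage of its mean in the 4 late controls, against paralog number, for 26 of the 27 Hox genes with a late mean of at least 1 CPM, with a panel each for the early E7.5, E7.0 and E6.5 controls and for late E7.5 control replicate 1, and 1 colour per cluster. At E7.0 the highest point is Hoxb1 at 66.3%, and the median over the 7 genes of paralogs 9 to 13 is 3.78%.

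Tested with edgeR's quasi-likelihood fit over all genes (Benjamini-Hochberg), 31 of 35 members tested were higher in the 4 late than in the 5 early controls and 0 lower, where 10.0% of 17831 genes were called higher and 5.92% lower. Hoxb13, Hoxc12, Hoxc13 and Hoxd12 were too low to be tested, and a member that passed the filter only with the older embryos had to differ, so that count is a description. Over the 14 members that passed with the early controls alone (0.127 CPM or more in at least 3 of 5), a choice made after the data were seen, 13 were higher and 0 lower, where 8.66% of 16576 genes chosen the same way were higher and 6.36% lower. Their median log2 fold change was 3.99 (0.04 over those genes), and the 1 not called was Hoxd13. Hoxb1 rose by a log2 fold change of 3.65 ± 0.70 (SE; adjusted p = 0.0072), Hoxd1 by 2.58 ± 0.48 (0.00681) and Hoxb2 by 3.56 ± 0.82 (0.015). Hoxb8, a regulator of trunk identity, Hoxc8, which patterns the thoracic skeleton, and Hoxb5 started near 0 and passed the filter only with the older embryos, so their fitted changes are not given. In E6.5 replicate 1 Hoxb8, Hoxc8 and Hoxb5 had 27, 11 and 84 UMIs, and in the other 4 early controls no more than 3, 0 and 4. Hoxb6, Hoxb4, Hoxb9 and Hoxd9 had log2 fold changes of 4.97, 5.33, 5.40 and 3.85 and were called as well. Not called were Hoxd13 (0.21 ± 0.49, adjusted p = 0.811) and Hoxa6, Hoxa13 and Hoxd11, which passed the filter only with the older embryos. With experiment as a covariate, or within experiment 7 with its 1 early embryo, 0 members and 0 genes were called higher, with medians of 3.79 and 3.77 over the members tested.

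No member was called between neighbouring stages by edgeR, where 0.00561% of genes were called higher in middle than early controls and 0 in late than middle controls. Middle against early controls gave 28 members at an unadjusted p below 0.05 (6.24% of all genes higher by that rule), a median log2 fold change of 3.13 and 7 calls by DESeq2 (0.348% of genes higher). Without the E6.5 embryo edgeR called 8 (1.19%). Only 14 members passed the filter with the early controls alone. The counts of middle against early controls include members that had to differ and are a description. The same holds for late against middle controls, where Hoxd4, for example, passed the filter only with the late controls. Late against middle controls gave 19 members at an unadjusted p below 0.05 (7.84%), a median of 1.95 and 4 calls by DESeq2 (1.76% of genes higher), and edgeR called 3 without the early E7.5 embryo (0.114%) and 3 without late E7.5 replicate 1 (1.38%). Hoxa3, which overlaps other members, came lowest in p for late against middle, at 2.91 ± 0.79 (unadjusted p = 0.00302, adjusted p = 0.212). It was at 0.193 CPM at late E6.5, 0.648 at E7.0, 2.84 at early E7.5, and 2.83, 9.44, 9.42 and 10.1 CPM late.

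The other members with the highest late means were Hoxb6, Hoxb8, Hoxb4, Hoxc8, Hoxb9 and Hoxb5. Hoxb6, a gene of the trunk mesoderm, was at 0.0614, 0.509 and 0 CPM at E6.0, 3.25 at E6.5, 5.13 at E7.0, 22.8 at early E7.5, and 15.8, 30.8, 27.7 and 42.3 CPM late. Hoxb8 was at 0.833 CPM at E7.0, 6.97 at early E7.5, and 2.83, 24.1, 45.5 and 31.4 CPM late. Hoxc8 was at 0.177 CPM at E7.0, 3.29 at early E7.5, and 1.57, 19.0, 42.5 and 8.86 CPM late. For Hoxb8 and Hoxc8, late E7.5 replicate 1 was below the early E7.5 embryo, and the 4 late values differed by over 10-fold. Hoxb4, which acts in neck vertebrae and blood stem cells, was at 9.55, 11.7, 29.3 and 23.8 CPM late and Hoxb5 at 4.79, 13.1, 14.3 and 16.4 CPM. Hoxb9, of the thoracic region, was at 1.94, 13.3, 20.2 and 17.3 CPM late. Hoxd9, the only paralog 9 to 13 gene at 1 CPM before early E7.5, was at 1.68 CPM at E6.5, 0.600 at late E6.5, 2.01 at E7.0, 11.2 at early E7.5, and 6.47, 7.66, 7.96 and 12.1 CPM late, without the low value of late E7.5 replicate 1 that Hoxb8, Hoxc8 and Hoxb9 had.

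Of the late controls' cells, 57.6% ± 6.56 (SD, n = 4) held a Hox UMI, and 39.6% ± 8.28 after each cell was thinned to 2000 UMIs, which leaves out 4.33% to 17.2% of cells. At E6.0 the thinned shares were 1.72%, 2.99% and 0.826%, and they were 2.35% at late E6.0, 6.92% at E6.5, 4.38% at late E6.5, 14.3% at E7.0 and 31.4% at early E7.5. In the late controls they were 29.3% and 36.5% at late E7.5 and 46.6% and 45.8% at E7.75. Single cells held up to 27 different members.

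Cells were clustered without the Hox genes and without all listed genes, 242 in all, so that Hox levels did not make the classes. The experiments were aligned before clustering. The 41 clusters were named by fixed markers, 6 of them staying unnamed. Visceral endoderm-like and extra-embryonic ectoderm-like cells were taken as background. In late controls visceral endoderm-like cells summed to 26.6, 68.6, 62.6 and 92.7 Hox CPM with thinned shares of 4.34%, 9.65%, 9.29% and 11.9% (median 19381, 5689, 6716 and 13382 UMIs per cell), in the order of embryos used above. Extra-embryonic ectoderm-like cells had 8.69 CPM in late E7.5 replicate 1 and 33.6 CPM in replicate 2 (median 17354.5 and 15116 UMIs).

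Caudal epiblast-like cells, the posterior layer that feeds spinal cord and trunk mesoderm, had the highest sums in this clustering. They held 1220 CPM (95% Poisson interval 1204 to 1235) in late E7.5 replicate 2, 1100 (1008 to 1199) in E7.75 replicate 1 with only 65 cells, and 1107 (1095 to 1119) in E7.75 replicate 2, and thinned shares of 86.5%, 84.6% and 87.3%. Intervals here cover counting error only. A median of 9, 6 and 8 members was found per cell. Presomitic mesoderm-like cells, which form the somites, held 674, 915, 827 and 923 CPM, lateral plate and extra-embryonic mesoderm-like cells 532, 758, 715 and 894 CPM, and paraxial mesoderm-like cells 493, 562, 245 and 668 CPM. Endothelium-like cells were lower, at 206, 343, 239 and 354 CPM, and cardiomyocyte-like cells lower again, at 151 CPM in late E7.5 replicate 2 and 188 and 153 CPM at E7.75. Blood-like cells, at 24.9 to 36.8 CPM, lay within the range of the background classes. Anterior neural ectoderm-like cells stood at 33.7, 247, 394 and 208 CPM. Markers of posterior neural ectoderm were raised in them too, 4 in cluster 1 and 6 in cluster 12, so the name of the class does not exclude posterior cells. That class joins clusters 1 and 12, and cluster 1 held 96.8% of its cells in E7.75 replicate 1 against 28.9% in replicate 2, with Hoxb8 over the class at 50.2 and 2.66 CPM and Hoxc8 at 39.5 and 0.169 CPM. Without alignment of the experiments, computed by class after the data were seen, caudal epiblast-like cells held 105, 403 and 511 CPM in late E7.5 replicates 1 and 2 and E7.75 replicate 2, below lateral plate-like cells of the same embryos at 540, 440 and 893 CPM, and E7.75 replicate 1 had none, so the order of the classes rests on the alignment.

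For each of the 27 members with a late mean of at least 1 CPM, the class with the highest mean is given as a description with no test, since the classes were described in different sets of late controls and many members had their peak there in only some embryos. Caudal epiblast-like cells were highest for 11, of which 8 are paralogs 4 to 8, among them Hoxa3, Hoxa4, Hoxa7, Hoxb4, Hoxb7, Hoxb8, Hoxb9, Hoxc4, Hoxc6 and Hoxc8. This class was described in 3 late controls, without late E7.5 replicate 1, the low one for higher paralogs, which enters the means of other classes. Hoxa4, Hoxa7 and Hoxc6 were highest there in only 1 embryo and Hoxb7 and Hoxc8 in 2, and for Hoxa4 the mean was 4.89 CPM against 4.79 CPM in presomitic mesoderm-like cells. Hoxb8 was at 169, 144 and 153 CPM there and Hoxb9 at 102, 76.2 and 83.4 CPM. Hoxc8 was at 88.7, 174 and 9.37 CPM, so that it varied between embryos far more than Hoxb8 did. Lateral plate-like cells were highest for Hoxa10, Hoxa11, Hoxb6, Hoxc9, Hoxc10 and Hoxd1. Hoxb6 was there at 122, 117, 88.6 and 178 CPM and Hoxd1, highest there in 2 of 4 embryos, at 50.8, 33.8, 32.1 and 55.4 CPM. Hoxa10, which patterns the lumbar region and the uterus, was at 16.7, 51.5, 16.5 and 52.5 CPM in lateral plate-like cells and at 0.306, 2.12 and 0.275 CPM in caudal epiblast-like cells, the reverse of Hoxb9. Presomitic mesoderm-like cells were highest for Hoxa2, Hoxa5, Hoxb2, Hoxb3 and Hoxd4, with Hoxb2 at 134, 110, 54.5 and 135 CPM. Primordial germ cell-like cells, 58 cells in each of 2 late controls, were highest for Hoxa9, Hoxd3 and Hoxd9, but in 1 embryo of 2 for each. Endothelium-like cells were highest for Hoxb5, at 29.2, 43.4, 43.6 and 39.6 CPM, and node and notochord-like cells, 51 to 67 cells per embryo, for Hoxb1, at 377, 107 and 305 CPM.

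**Figure D4:**
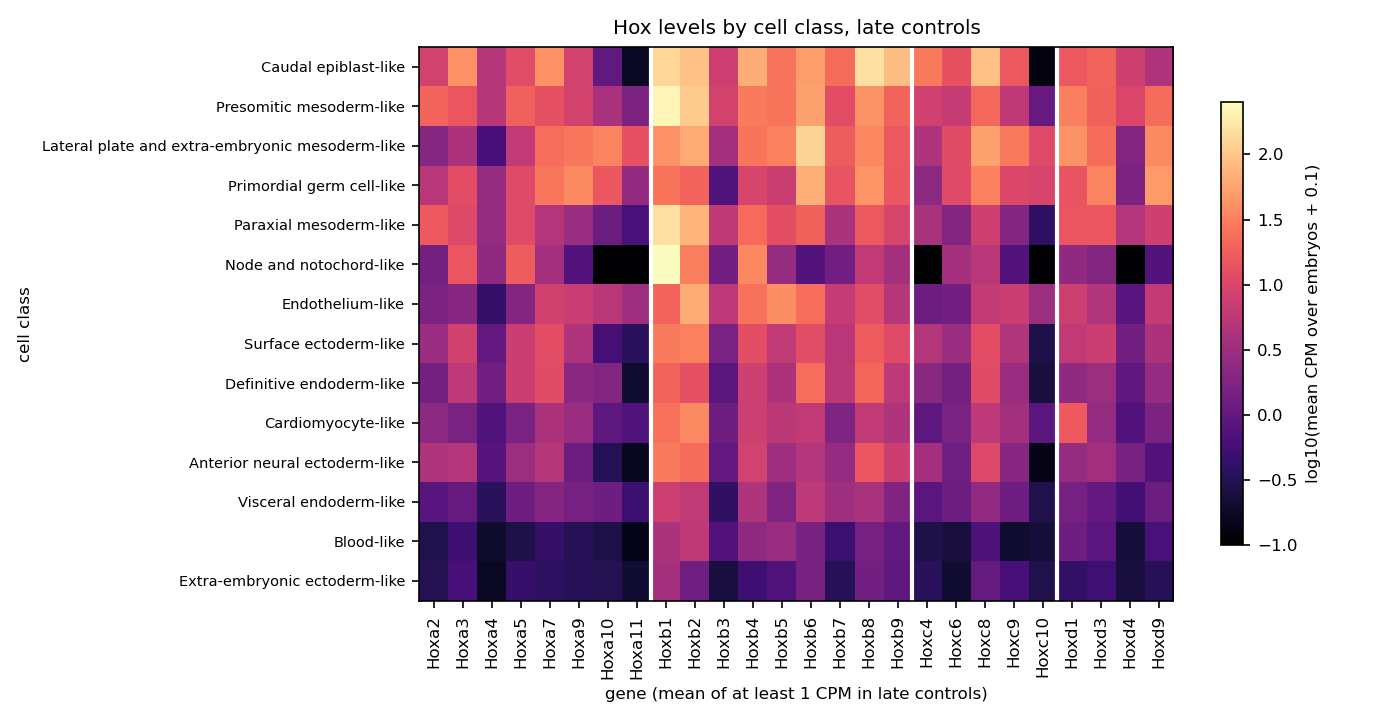
Mean level over late control embryos, log10(CPM + 0.1), of 26 of the 27 Hox genes with a late mean of at least 1 CPM (horizontal) in each cell class (vertical). Hoxb8 is brightest in caudal epiblast-like cells (155 CPM), and Hoxb6, Hoxa10 and Hoxa11 in lateral plate-like cells (126, 34.3 and 12.9 CPM). Visceral endoderm-like cells are low but not empty, with Hoxb1 at 5.13 to 12.2 CPM across late controls.

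The late KO embryo, labelled late E7.5, held less of most Hox genes than the late controls. Its sum was 63.3 CPM, 16.03% of the control mean of 395 ± 108 CPM (SD, n = 4) and below the lowest late control at 256 CPM. Paralogs 1 to 3 stood at 11.4% of the control mean, paralogs 4 to 8 at 18.9% and paralogs 9 to 13 at 28.3%. By cluster the KO had 9.31% of the control mean for Hoxa, 17.1% for Hoxb, 25.7% for Hoxc and 18.6% for Hoxd. The KO lay below all 4 late controls for 24 of 39 members, within their range for 15 and above it for 0, and among members tested for 22 of 35, where the background was 36.8% of genes below and 9.86% above. All 8 genes of paralogs 1 to 3 were below, 11 of 15 of paralogs 4 to 8 and 5 of 16 of paralogs 9 to 13. Among members tested they were 8 of 8, 10 of 14 and 4 of 13. Of the 16, 8 reached 1 CPM in no control, and at such levels a place below all 4 is harder to detect. Without late E7.5 replicate 1, an alternative added after the data were seen, the KO lay below the other 3 for 31 of 39 members (8, 15 and 8 in the 3 groups), within their range for 8 and above it for 0, and among members tested for 28 of 35, where the background was 39.2% of genes. Of the 24, Hoxa4, Hoxa6, Hoxb13, Hoxc13 and Hoxd4 had 3 UMIs or fewer in the KO.

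With 1 KO embryo, whose spread is assumed to be that of the other embryos, edgeR called 0 members between late KO and late controls (0.0328% of 18298 genes were called higher and 0 lower). At an unadjusted p below 0.05 there were 10 members, all lower, against 3.53% of genes lower by that rule, among them Hoxa2, Hoxa3, Hoxa4, Hoxa5, Hoxb1, Hoxb9, Hoxc4, Hoxc13 and Hoxd4. Hoxa4 and Hoxc13 had no UMI in the late KO and passed the filter only through other embryos. The counts among members tested, for all cells and for the cell sets below, are therefore a description. The estimate was below 0 for 32 of 35 members (54.1% of genes), with a median of −1.97 (−0.05 over all genes). DESeq2 called Hoxa3 alone (adjusted p = 0.0157, with 0.295% of genes lower), and without any 1 of the other embryos edgeR called 0. Against the 2 late E7.5 controls alone, which match the KO in labelled age, 0 members were called (0.599% of genes higher, 0 lower), 4 had an unadjusted p below 0.05, all lower (4.53% of genes lower by that rule), and the median was −1.32. Against the E7.75 control of the same experiment, which has a similar depth and a later age, 33 members were lower in the KO, 29 of 35 among members tested where 48.8% of genes were lower, and 6 were higher (Hoxa11, Hoxa13, Hoxc10, Hoxc11, Hoxd10 and Hoxd13).

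Several genes had 12 UMIs or fewer in the late KO. Hoxa3, which acts in pharyngeal arch patterning, had 9 UMIs in the KO (0.175 CPM) against 2.83, 9.44, 9.42 and 10.1 CPM in the controls, 45.5-fold under the mean (log2 fold change −5.15 ± 1.56, adjusted p = 0.473). Hoxa2, which sets the identity of the second pharyngeal arch, had 10 UMIs (0.194 CPM) against 6.503, 5.04, 6.02 and 7.23 CPM (−4.61 ± 1.64, 0.551). Hoxa5 had 12 UMIs (0.233 CPM) against 2.997, 5.81, 7.22 and 10.7 CPM. Hoxa4 had no UMI, at least 27.1-fold under the control mean with a floor of 3 UMIs (0.0582 CPM), where controls had 0.583, 1.21, 1.92 and 2.59 CPM. Hoxc4 had 8 UMIs (0.155 CPM) against 0.583, 4.29, 9.51 and 4.77 CPM. Hoxd4 had 3 UMIs, 0.0582 CPM (interval 0.012 to 0.170), against 0.172, 2.45, 5.85 and 2.83 CPM. Hoxc13 had no UMI, and no fold is given, since the controls stood at 0.0485 to 0.105 CPM, on both sides of that floor.

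The Hoxb genes differed in how much of their level the KO held. Hoxb2 was at 10.5 CPM in the KO, 4.39-fold under the control mean, and Hoxb6 at 8.96 CPM, 3.25-fold under. Hoxb1 was at 5.68 CPM, 11.97-fold under (−3.16 ± 1.36, 0.624). Hoxb8 was at 2.04 CPM, Hoxb4 at 2.99 CPM and Hoxb9 at 0.621 CPM, each below all 4 late controls. Hoxb5 was at 5.30 CPM, Hoxc8 at 3.63 CPM and Hoxc9 at 2.79 CPM, and for each the control range reached the KO only through late E7.5 replicate 1, at 4.79, 1.57 and 1.15 CPM, while the other 3 late controls lay at 13.1 to 16.4, 8.86 to 42.5 and 5.13 to 11.52 CPM. Hoxc10 stood at 1.71 CPM in the KO against 0.374, 3.40, 1.29 and 1.86 CPM, and Hoxa11 at 1.26 CPM against 0.725, 2.93, 1.20 and 3.31 CPM, so that neither stood apart.

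**Figure D5:**
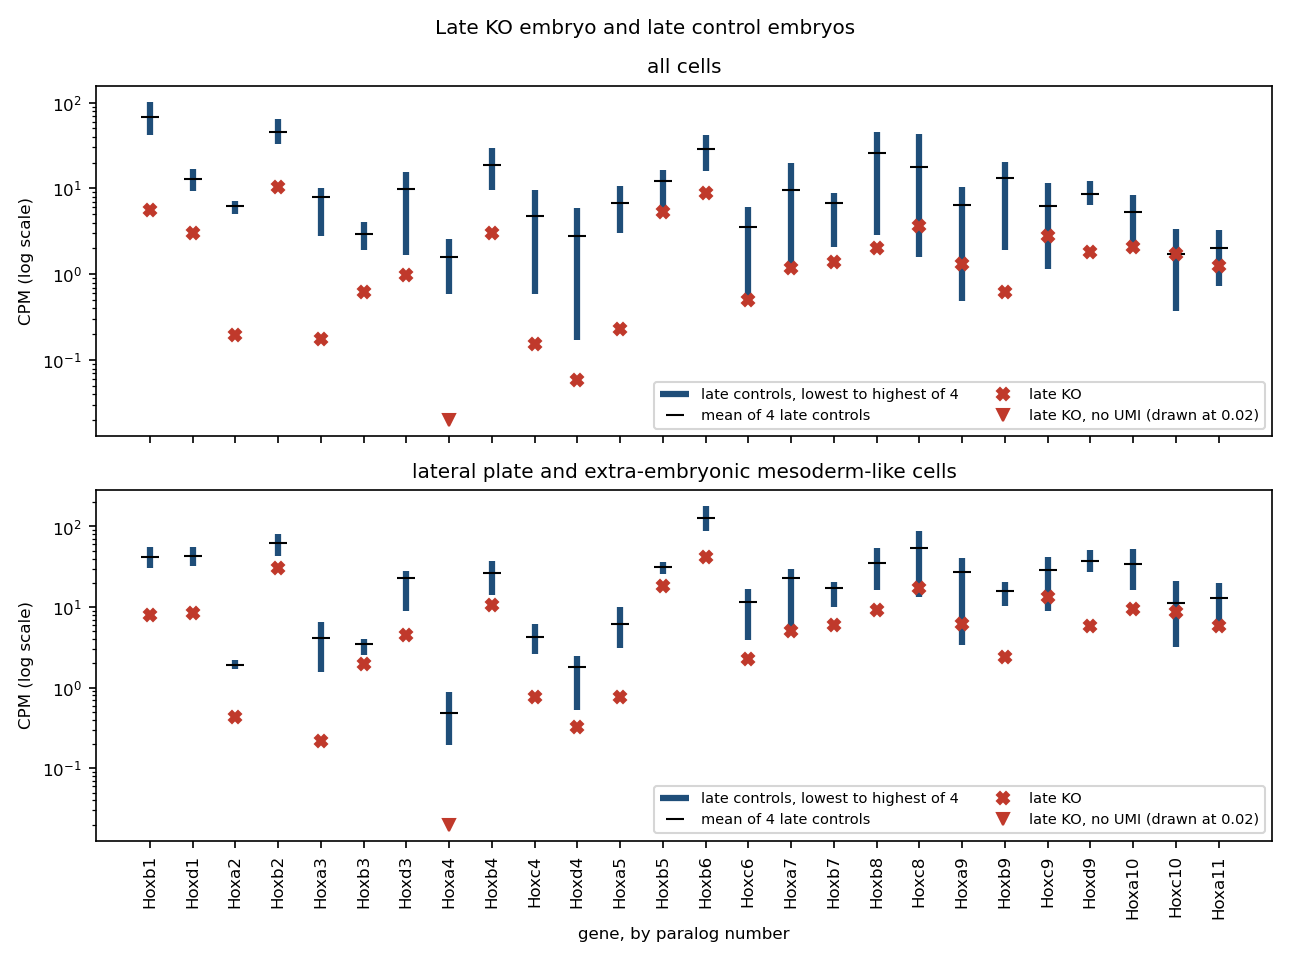
CPM (log axis) of 26 of the 27 Hox genes with a late mean of at least 1 CPM, ordered by paralog number, in the late KO (cross, or triangle where no UMI was found) and in the late controls (bar from the lowest to the highest of 4, dash at the mean), over all cells above and in the lateral plate and extra-embryonic mesoderm-like class below. Over all cells the KO is below the bar for the 7 genes drawn of paralogs 1 to 3 and within it for 4 of the 7 genes drawn of paralogs 9 to 13.

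At the earlier stages the E6.5 KO lay within the range of the early controls and the E7.0 KO below all middle controls in their Hox sum. The E6.5 KO had 13.3 CPM where the E6.5 control had 50.4 and the other early controls 5.69 to 15.2. The E7.0 KO had 15.02 CPM against 27.4, 104 and 296 CPM in the middle controls. Both KO embryos came from experiment 8 and all 3 middle controls from experiment 7, so that genotype and experiment cannot be told apart at the middle stage. The E6.5 control was of experiment 7 too, and the early controls of experiment 8 had 5.69 CPM (E6.0) and 15.2 CPM (late E6.0). The E7.0 KO's Hoxb1 level was 1.06 CPM against 7.74, 45.1 and 79.6 CPM, and Hoxb1 was the 1 member DESeq2 called there (0.0929% of genes lower). By edgeR 0 members and 0 genes of 18298 were called at either stage, with 11 at an unadjusted p below 0.05 in the middle embryos (3.71% of genes lower by that rule) and 1 in the early ones (1.05%). The change of the KO difference between stages was tested as an interaction, and 0 members were called (smallest unadjusted p 0.0597).

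The late KO also had fewer cells with a Hox UMI, 14.2% (95% Clopper-Pearson interval 13.6 to 14.8), and 9.38% after thinning, where late controls had 29.3% to 46.6%. The exact permutation p was 0.2 two-sided, the smallest that 1 embryo against 4 allows.

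Hox UMIs of the KO were gathered in lateral plate and extra-embryonic mesoderm-like cells. These were 19.0% of its cells and held 65.9% of its Hox UMIs, where in controls they were 7.30% to 12.5% of cells and held 14.2% to 25.2%. Caudal epiblast-like cells held 18.2% of Hox UMIs in late E7.5 replicate 2, 1.85% in E7.75 replicate 1 and 23.3% in E7.75 replicate 2, and numbered 47 in late E7.5 replicate 1 and 1 in the KO. They were 0.437% of cells in E7.75 replicate 1, shallow and of experiment 5 like the KO, and 4.78% and 10.004% in the other 2, and the part of depth and experiment in their number was not tested. Late E7.5 replicate 1 had 1800 epiblast-like cells, 26.6% of its cells, which held 23.9% of its Hox UMIs. Epiblast-like cluster 13 drew 69.3% of its cells from that embryo. Its leading genes included Nkx1-2 and Wnt8a as well as Pou3f1 and Dnmt3b. Whether it holds caudal epiblast cells was not tested. Primitive streak and mesendoderm-like cells were 15.8% of KO cells, and their Hox sum was 33.1 CPM. Paraxial mesoderm-like cells were 0.934% of KO cells against 8.94% to 18.4% in controls.

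Within the lateral plate-like class, a comparison added after the data were seen, the KO sum was 234 CPM (interval 224 to 244) against 532 to 894 CPM, and the thinned share 31.8% against 58.3% to 75.0%. The class joins 2 clusters that the genotypes filled differently: cluster 4 held 91.6% of the KO's cells and 37.1% to 71.4% of the controls', and cluster 7 the rest. In cluster 4 the sum was 213 CPM in the KO and 493 to 854 CPM in controls, and in cluster 7 it was 357 CPM (interval 325 to 391) against 542 to 905 CPM. The KO was below all 4 controls for 27 of 39 members in the class, 22 in cluster 4 and 19 in cluster 7, and above for none in any of the 3. By paralog group the class had 8 of 8, 14 of 15 and 5 of 16 below. Hoxb13, Hoxc12, Hoxc13 and Hoxd12, all of the last group, could not be below, since a control had no UMI of them there. Over genes with a mean of at least 1 CPM in the 5 late embryos in those cells, a share computed after the data were seen, the KO was below all 4 controls for 43.1% of genes in the class (24 of 31 members, and 29 of 31 below the other 3 without late E7.5 replicate 1, where 45.8% of genes were), 26.9% in cluster 4 (19 of 29) and 41.1% in cluster 7 (18 of 33). Without late E7.5 replicate 1 the KO was below the other 3 for 32 of 39 members in the class, 31 in cluster 4 (27 of 29, with 30.1% of genes) and 25 in cluster 7 (24 of 33, with 43.4%). Members low in the KO could pass the mean of 1 CPM only through the controls, so the counts among them are a description.

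Hoxb6, the most abundant member in this class, was at 41.4 CPM in the KO against 88.6 to 178 CPM (log2 fold change −1.16 ± 0.30, adjusted p = 0.538). Hoxd9 was at 5.76 CPM against 27.04 to 51.1 (−2.23 ± 0.38, 0.326), Hoxd1 at 8.48 against 32.1 to 55.4 (−1.90 ± 0.36, 0.364) and Hoxb1 at 7.94 against 30.4 to 56.0 CPM (−1.97 ± 0.41, 0.437). Hoxa3 had 2 UMIs, 0.217 CPM, against 1.58 to 6.59 CPM. Hoxa11, at 5.76 against 5.40 to 20.1 CPM, and Hoxc10, at 8.70 against 3.16 to 21.2 CPM, lay within the control range only through late E7.5 replicate 1, the other 3 controls being at 8.595 CPM or more and 9.49 CPM or more. By edgeR 0 of 33 members tested were called (0.00745% of genes higher, 0 lower), with 11 at an unadjusted p below 0.05, all lower (2.74% of genes lower by that rule), and a median of −1.39.

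Over the 13 clusters rich in reporter cells, edgeR called 0 of 34 members (0.0244% of 16373 genes higher, 0.00611% lower). Hoxa2, Hoxa3, Hoxa4, Hoxa5 and Hoxb1 had an unadjusted p below 0.05 (4.14% of genes lower by that rule), and the median was −1.18. The KO lay below all 4 late controls for 24 of 39 members, tested or not, where the background was 41.4% of genes tested. Without late E7.5 replicate 1 it lay below the other 3 for 30 of 39, and for 28 of the 34 tested (44.7% of genes tested). These clusters include a visceral endoderm-like, a parietal endoderm-like and an unnamed one and leave out the presomitic mesoderm-like one. With mesoderm taken by named classes instead, a choice made after the data were seen, edgeR called 0 members and 0 genes, 12 members had an unadjusted p below 0.05, all lower (3.44% of genes lower by that rule), and the median was −1.60. In cells outside the reporter-rich clusters, also added after the data were seen, 0 of 31 were called (0.0458% of genes higher, 0 lower) and 12 had an unadjusted p below 0.05 (3.94% lower by that rule), with a median of −4.40. These cell sets rest on the alignment of experiments: without it the reporter-rich clusters held 39 cells of the KO in place of 4400 and 323 of E7.75 replicate 1 in place of 3637, edgeR called 0 members, and the median was −10.22 (−1.56 over all genes). In lateral plate-like cells the KO then had 120 CPM over 3528 cells and the controls 440 to 893 CPM, and no presomitic mesoderm-like cell of the KO or of E7.75 replicate 1 was found.

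In presomitic mesoderm-like cells (cluster 5 in all embryos) the KO's 458 cells held 69.2 CPM (interval 57.3 to 82.9) against 674 to 923 CPM, and 57.5 CPM of it came from paralogs 1 to 3. Hoxb1 was at 35.2 CPM there against 359, 195, 115 and 219 CPM, and Hoxb2 at 15.3 against 134, 110, 54.5 and 135 CPM. Hoxa2 had no UMI in the KO against 13.1 to 29.0 CPM, and Hoxb6, Hoxb8 and Hoxc8 had 2, 1 and 1 UMIs. The KO was below all 4 controls for 24 of 39 members, and among those with a mean of at least 1 CPM there for 22 of 28, where the background was 35.7% of genes, and without late E7.5 replicate 1 for 33 of 39 and 28 of 28 (40.6%). A member low in the KO could pass that mean only through the controls, so these counts are a description. Of paralogs 4 to 8 the KO held 5.87 CPM against 35.7 to 383 CPM.

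In endothelium-like cells the KO was closer to the controls, with 139 CPM (interval 121 to 159) against 206 to 354 CPM, and Hoxb5 at 28.5 CPM against 29.2 to 43.6 CPM. Hoxb1 had 2 UMIs there against 12.4 to 23.7 CPM in controls, while Hoxb2 was at 38.3 CPM, within 30.9 to 98.6 CPM. Its 59 cardiomyocyte-like cells held 115 CPM (interval 73.8 to 171), an interval that covers the values of all 3 controls with such cells except 188 CPM. The paper found late-stage cardiomyocytes, paraxial and presomitic mesoderm cells only in controls. Clusters here were named over all embryos together, not from their KO cells. Node and notochord-like cells of the KO, 223 in number, had 9.18 CPM (interval 3.37 to 19.98) and no Hoxb1 UMI, and paraxial mesoderm-like cells 14.5 CPM (interval 5.84 to 29.9), with 95.8% of them in cluster 17 where controls had 107 to 164 CPM. Anterior neural ectoderm-like cells of the KO had 6.06 CPM and definitive endoderm-like cells 7.47 CPM. The KO's visceral endoderm-like cells had 11.6 CPM and a thinned share of 1.51% (median 5136 UMIs), so these last 4 classes of the KO were at its background.

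Other genes of the Hox pathway were counted in lists chosen with earlier results known. From early to late controls 10.0% of all genes were called higher and 5.92% lower, and with experiment as a covariate 0 were higher and 0.00561% lower. The calls that follow do not hold under it for genes that rose, and whether any holds for genes that fell is not shown. Of 9 TALE cofactors, 4 rose from early to late controls and 0 fell, Meis1 (log2 fold change 3.53 ± 0.50), Pknox2 (2.76 ± 0.43), Meis2 (2.55 ± 0.35) and Meis3. Of 5 caudal-related and ParaHox genes tested, 3 rose, Cdx4 by 6.16 ± 1.03, Cdx1 by 5.26 ± 0.90 and Cdx2 by 1.91 ± 0.40. Of 17 retinoic acid genes tested, 8 rose and 1 fell: Aldh1a2, the main retinoic acid-making enzyme of the embryo, rose by 8.53 ± 1.37, Crabp1 by 4.46 ± 0.70 and Crabp2 by 4.10 ± 0.51, and Cyp26a1, which degrades retinoic acid, fell by 2.04 ± 0.36 on the log2 scale. Of 11 posterior Wnt and Fgf signals, 6 rose and 2 fell, with Wnt3a at 2.13 ± 0.65, Wnt8a at 1.94 ± 0.33 and Wnt5a at 1.57 ± 0.29 among the first and Wnt3 and Fgf8 the second. Of 7 posterior transcription factors 3 rose, Msgn1, Nkx1-2 and Tbx6. Of 4 cluster neighbours tested, Skap2 rose and Snx10 fell, of 10 chromatin regulators 1 rose (Cbx2), and of Gmnn and Ctcf 0 were called. Any list gene that passed the filter only with the older embryos had to rise. Such genes were not set apart here, so the counts of genes that rose are a description.

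In the late KO 0 genes of any of these lists were called, where by an unadjusted p below 0.05 3.53% of all genes were lower and 4.19% higher. By that rule 2 of 9 TALE, 2 of 5 caudal-related, 1 of 4 neighbour, 4 of 18 retinoic acid and 5 of 11 Wnt and Fgf genes were lower, 0 of 7 posterior transcription factors and 0 of 10 chromatin genes were, and Cyp26a1, Wnt3 and the chromatin gene Kdm6b were higher. Values named here were chosen after they were seen. Aldh1a2 was at 0.330 CPM in the late KO against 60.1, 89.4, 64.0 and 170 CPM in the late controls, and 0.364 CPM at late E6.5 and 1.69 CPM at E7.0. Cdx1 was at 2.10 CPM against 73.8 to 238 CPM, Cdx2 at 23.5 against 85.8 to 174 CPM and Cdx4 at 3.76 against 20.5 to 105 CPM. Wnt3a was at 0.854 CPM against 5.67 to 17.7 CPM, and Meis1 at 1.07 CPM against 7.21 to 16.9 CPM. Cyp26a1 went the other way, at 60.3 CPM in the KO against 15.7 to 38.6 CPM in late controls and 44.4 to 107 CPM at E7.0 and late E6.5. Whether these genes have a part in the Hox levels of the KO was not tested.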

How the data were processed

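Whole mouse embryos were dissociated and single cells were sequenced with the 10x Genomics 5′ v1 kit. The deposited files hold raw UMI counts per gene and cell, which the authors made with Cell Ranger 3.0.2 on the mm10 genome joined by both reporter sequences. The reporter entries were left out of library totals. Cells under 10% mitochondrial UMIs, under 50000 UMIs and with 200 to 7000 genes were kept (93701 of 99474 barcodes, with 13058356 to 379177866 UMIs per library). Doublet scores marked 10.3% of cells, which stayed in and were left out as an alternative.

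Counts were summed per embryo, and per embryo and cell class, and tested with edgeR 4.0.16 (quasi-likelihood test, TMM scaling, Benjamini-Hochberg adjusted p below 0.05) in R 4.3.3, with DESeq2 1.42.0 as an alternative. Each stage's 1 KO embryo was assumed to vary like the other embryos. Cells were clustered on 2000 variable genes and 50 components, aligned between experiments by mutual nearest neighbours (clustering without it was an alternative), with 20 neighbours (Leiden, leidenalg 0.10.2, resolution 1), leaving out 242 Hox, listed and reporter genes. Clusters were named "X-like" from fixed markers, by a naming rule that was revised after the clusters were seen, and 13 clusters rich in reporter cells, not all of them mesodermal by name, were tested together. A class was described in an embryo with at least 50 cells of it. Shares of cells carry 95% Clopper-Pearson intervals and levels 95% Poisson intervals. A fold against 0 UMIs used a floor of 3 UMIs per library. The fit was tested on simulated counts with known changes.

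The Hox genes and the gene lists were chosen with earlier results of these data known. Named genes were the 10 members with the highest late mean, members at 1 CPM in an early control, the genes of paralog number 1, up to 6 members per direction with the largest change in the late KO, and up to 3 called genes per list and direction. The values of 1 member stayed in all counts, sums and fits but are not reported here. Alternatives were another scaling and tool, filters, onset thresholds of 0.5 and 5 CPM, thinning to 2000 UMIs, experiment as a covariate, a replicate block and leaving out each embryo. Fits in lateral plate-like cells and in cells outside the reporter-rich clusters, onset without E6.5 control replicate 1 or early E7.5 control replicate 1, late against early controls over genes that the early controls alone put past the filter, and the KO's place among late controls without late E7.5 control replicate 1, were added after the data were seen.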

Additional observations from a re-analysis of the deposited data

Results flagged for a closer look

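Of 48 groups of 4 or 5 embryos tested for 1 value far from the others, 14 were picked out. The groups share embryos and genes, and the sums hold the genes, so a rate of about 1 in 20 for unrelated groups does not apply. A gene with UMIs in only 1 embryo of a group is picked out by the rule itself. In 12 of them E6.5 control replicate 1 stood above the other early controls, which were labelled E6.0 or late E6.0. In that embryo the Hox sum was 50.369 CPM (5.689 to 15.199 in the others), the sum of paralogs 1 to 3 was 38.942 CPM (3.928 to 11.492) and that of paralogs 4 to 8 was 7.136 CPM (0.614 to 1.854). Hoxb1 was at 16.0028 CPM (1.6253 to 3.8307), Hoxb6 at 3.253 CPM (0 to 0.5093) and Hoxd9 at 1.679 CPM (0.1354 to 0.382). Hoxb5 was at 0.8815 CPM (0 to 0.2471), Hoxa2 at 0.4932 CPM (0 to 0.1236) and Hoxa5 at 0.1679 CPM (0 to 0.0307). Hoxc8 at 0.1154 CPM, Hoxa4 at 0.0315 CPM and Hoxd4 at 0.021 CPM (11, 3 and 2 UMIs) had no UMI in the other early controls, which are shallower, and since a floor of 3 UMIs there lies at 0.0921 to 0.4063 CPM, Hoxa4 and Hoxd4 at such levels lay under it in all 4 and Hoxc8 in 3 of them.

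In the other 2, late E7.5 control replicate 1 lay below the other late controls, with Hoxa3 at 2.8254 CPM (9.4155 to 10.1105 in the others) and paralogs 9 to 13 at 14.875 CPM (53.085 to 57.16).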

How the results depend on the processing

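The 31 members higher in late than early controls became 0 with experiment as a covariate, 0 within experiment 7, 28 to 31 when 1 embryo was left out and 13 of 14 among members past the filter in the early controls alone. The covariate leaves few embryos per experiment, and experiment and stage overlap. Middle against early controls went from 0 to 7 with DESeq2 and to 0 to 8 when 1 embryo was left out, counts that include members past the filter only with the older embryos. Late against middle controls went from 0 to 4 with DESeq2 and to 0 to 3 when 1 embryo was left out, counts that include such members too. Late KO and middle KO each went from 0 to 1 with DESeq2. Members at 1 CPM in early controls, 7, became 12 at 0.5 CPM, 3 at 5 CPM, 1 when every embryo had to pass, 12 after thinning and 4 without E6.5 control replicate 1. After thinning, E6.0 control replicates 2 and 3 held 535981 and 483993 UMIs, so 1 UMI alone passed 1 CPM there. Those in middle controls, 25, became 12 at 5 CPM, 6 when every embryo had to pass and 9 without early E7.5 control replicate 1. The share of cells with a Hox UMI in late controls became 39.6% after thinning and 45.9% at 2 UMIs or more, and in the late KO 9.38% after thinning, 5.41% at 2 UMIs or more and 12.9997% without doublets. With the replicate number as a block, 25 members were called in late against early controls and 0 in the KO comparisons. The labels do not tie embryos of 1 number together, and the correlations of their deviations were 0.135, −0.307 and −0.492. Of the named genes' values in late against early controls and in the late KO over all cells and reporter-rich cells, 37, all of them late against early, lost their call under an alternative, 1 gained one (Hoxa3 with DESeq2) and 0 changed sign. Depth limits members under the floor of 3 UMIs.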

Other observations

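Cells were also split by whether they held a reporter UMI. In the late KO, the 960 cells with an Ai14 UMI had a Hox sum of 113 CPM, the 465 cells with an eGFP UMI 124 CPM and the 11483 cells with neither 55.5 CPM. In the late controls, in the order late E7.5 replicates 1 and 2 and E7.75 replicates 1 and 2, cells with an eGFP UMI had 350, 359, 361 and 549 CPM and cells with neither 244, 374, 460 and 476 CPM. By its labels late E7.5 replicate 1 carries no Ai14, yet 165 of its cells held an Ai14 UMI, so a reporter UMI can be background. Its cells with an Ai14 UMI are not described. In the other 3 late controls such cells had 360, 387 and 536 CPM. The KO was thus below all late controls described among cells with and without a reporter UMI, but such a split depends on depth. Cells with an eGFP UMI had a median of 4809 UMIs in the KO and 5550 to 30002 in late controls, so the sets are not alike. The split was chosen after the data were seen.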
